A study of Mus musculus with 12 samples.

Results

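Ligands and receptors that drive and shape blood vessel growth were followed in the hearts of running and sedentary mice. The 10 genes were Vegfa, Vegfb, Vegfc and Pgf of the vascular endothelial growth factor family, the angiopoietins Angpt1 and Angpt2, the peptide apelin (Apln) with its receptor Aplnr, and the neuropilin co-receptors Nrp1 and Nrp2, among 19057 genes named on the array. Members were chosen by name, as every probe whose platform annotation carries one of these symbols. That gave 22 probes with 1 symbol each, and 1 further Nrp2 probe that carried several symbols was left out. Total RNA of whole hearts from male C57Bl/6 mice aged 8 weeks was hybridised to Illumina beadchips, with 6 hearts from mice given 7 days of voluntary wheel running and 6 from sedentary mice. The study compared the groups to find cardiac genes that respond to exercise. The labels do not state that each array is a separate mouse, and the p-values describe only the spread among these 12 samples.

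Vascular endothelial growth factors bind receptor tyrosine kinases on endothelial cells, the cells that line vessels, and the neuropilins hold these ligands at the receptor. Vegfa drives sprouting of blood capillaries, Vegfc mainly that of lymphatic vessels, and Vegfb and Pgf bind Flt1. Angpt1 and Angpt2 are opposing ligands of the endothelial receptor Tek, the first steadying vessels and the second loosening them. Apelin acts on endothelial cells through Aplnr, a G protein-coupled receptor, and in the heart this pair is also known for effects on contraction and vessel tone.

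Signal is given as log2 intensity after background correction and quantile normalisation. A probe's level cannot be set against another probe's on this platform, so each is compared with itself between groups. A probe was tested when its detection p, the chance of such a signal from background alone, was under 0.01 on at least 6 of 12 arrays. The hearts carried the labelled tissue's markers: all 11 cardiomyocyte genes measured were detected on all 12 arrays. The array background fell into a low range, with median raw intensities of 48.6 to 53.3 on 8 arrays, and a high range of 130.5 to 138.6 on exercised replicates 2, 3 and 6 and sedentary replicate 2. With the groups accounted for, 37.8% of all tested probes differed between these ranges at an adjusted p under 0.05. Hepatocyte transcripts were high in exercised replicates 1, 5 and 6, where the mean of 10 measured genes was 10.44, 11.96 and 12.80 against 6.43 to 8.18 on the other arrays; the defining marker Alb was detected on 1 array and Fgb on 0.

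None of the measured ligands or receptors passed the test for a difference between running and sedentary hearts. The member with the largest measured difference was the apelin receptor Aplnr, whose mean was lower by 0.79 on the log2 scale after running, and the next was the lymphatic growth factor Vegfc, lower by 0.47. The group means of Vegfb differed by -0.08 and those of Vegfa, at its brighter probe, by 0.05. Apelin itself was not detected in any heart. In whole-heart RNA, fewer cells of a type and less RNA per cell cannot be told apart. Of the 22 probes, 12 passed the detection filter and covered 9 of the 10 genes, and 10 of these 12 were detected on every array. Among the 12 tested probes, 0 passed an adjusted p of 0.05 with limma, against a background of 0.0936% of all 17098 tested probes. At an unadjusted p under 0.05 there were 2 member probes, Aplnr and Vegfc, beside 14.6% of all tested probes. Both were lower after running with an unadjusted p under 0.01, which 3.24% of all tested probes were. The member differences ran from -0.79 to 0.42, with 7 negative, 5 positive and a median of -0.09, and over all tested probes 54.6% were negative and the median was -0.03.

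**Figure D1:**
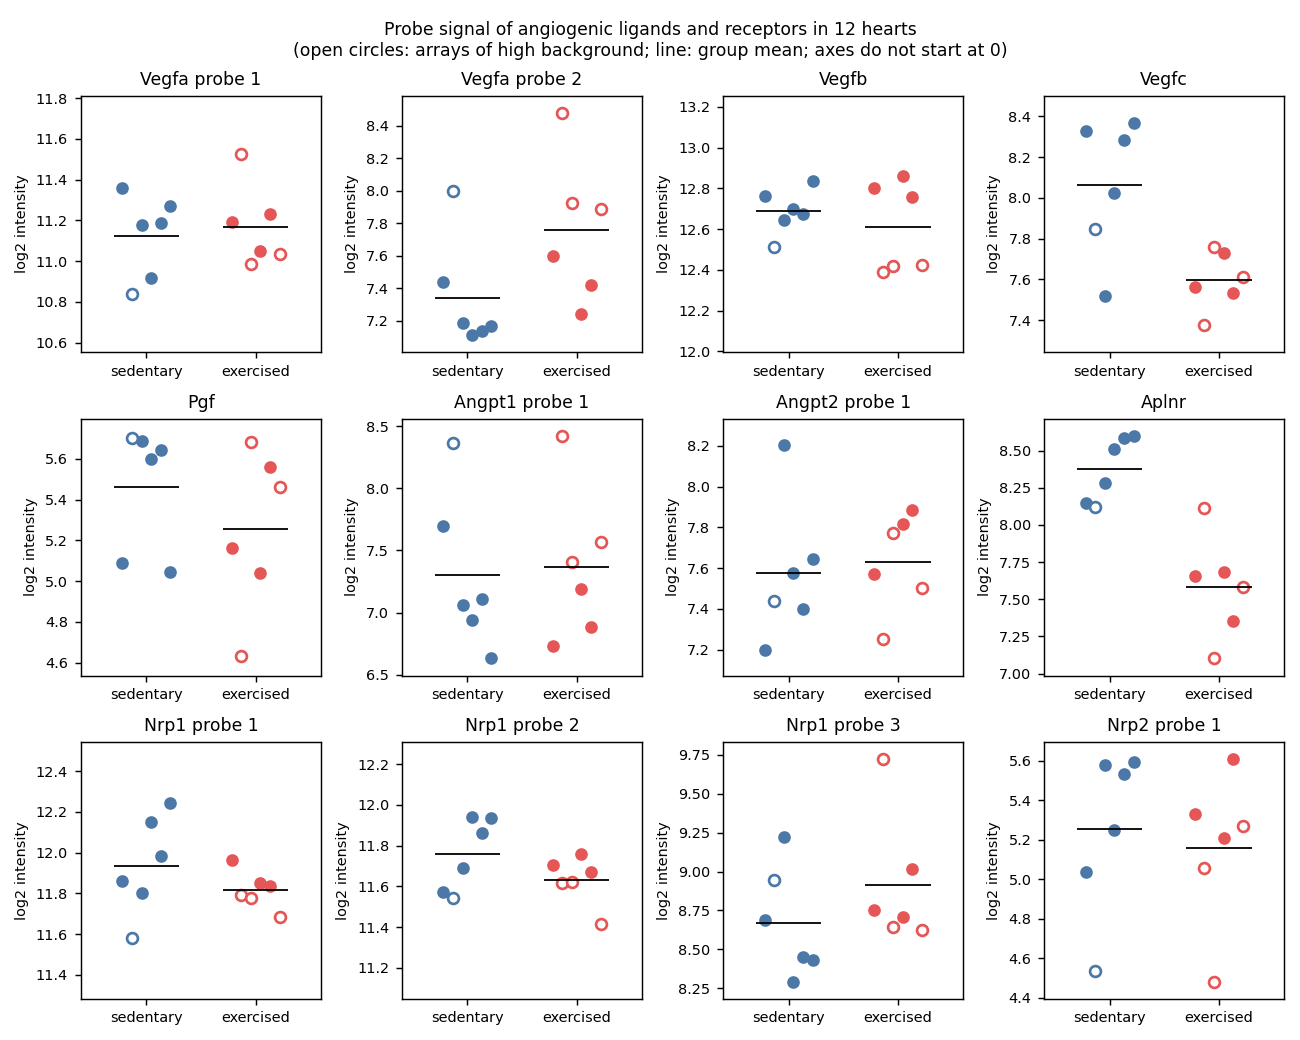
Log2 intensity of the 12 tested probes, each point 1 heart, sedentary in blue and exercised in red, with the group mean as a line and arrays of high background as open circles. The 6 exercised hearts lie below all 6 sedentary hearts at Aplnr, while the groups overlap at the other probes; each panel has its own axis.

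Vegfa, the main growth signal for capillaries, was read by 3 probes. The brighter one is annotated to another transcript record than the other two, which share a record. At the brighter probe the exercised hearts ran from 10.99 through a median of 11.12 to 11.53, and the sedentary hearts from 10.84 through 11.18 to 11.36. The exercised range covered most of the sedentary one, and no group stood above the other. The means were 11.17 ± 0.20 and 11.12 ± 0.20 (SD, n = 6 each), a log2 difference of 0.05 (SE 0.12, adjusted p = 0.858) whose 95% interval reached from 0.871-fold to 1.22-fold.

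The dimmer Vegfa probe gave another picture. Its exercised values ran from 7.24 through 7.74 to 8.48 and its sedentary values from 7.11 through 7.18 to 8.00. The 4 highest values, 7.89 to 8.48, all came from the 4 arrays of high background, which include the sedentary heart at 8.00. The mean was 7.76 ± 0.44 after running and 7.34 ± 0.34 at rest (SD, n = 6 each), a difference of 0.42 (SE 0.20, adjusted p = 0.353). It was 0.27 without exercised replicate 2, the highest exercised heart, and 0.55 (adjusted p = 0.1) without sedentary replicate 2, the highest sedentary heart. With array weights it was 0.37 (95% interval 0.06 to 0.68, adjusted p = 0.151). With replicate numbers as a block it was 0.42 (95% interval 0.15 to 0.68, adjusted p = 0.152). High-background arrays exceeded the others at this probe by 0.72 (SE 0.13, adjusted p = 0.000705) with the groups accounted for. With the background range as a block the group difference was 0.18 (adjusted p = 0.605), and within the low-background and high-background arrays it was 0.21 and 0.10. The deviations of both probes from their group means correlated at 0.11 over the 12 arrays, so they did not follow the same samples. The remaining Vegfa probe was detected on 0 arrays.

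Vegfb, an Flt1 ligand that is abundant in cardiac muscle, had exercised values of 12.39 to 12.86 with a median of 12.59 and sedentary values of 12.51 to 12.83 with a median of 12.69. The 3 lowest hearts, at 12.39 to 12.42, were the exercised hearts on high-background arrays, and the sedentary heart on such an array, at 12.51, was the next. The means of 12.61 ± 0.22 and 12.69 ± 0.11 (SD, n = 6 each) differed by -0.08 (SE 0.10, adjusted p = 0.703). High-background arrays were lower at this probe by 0.33 (SE 0.07, adjusted p = 0.00232), and with that range as a block the group difference was 0.03.

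Vegfc, the ligand of the lymphatic receptor Flt4, ran from 7.38 through a median of 7.59 to 7.76 in exercised hearts and from 7.52 through 8.15 to 8.37 in sedentary hearts. Of the sedentary hearts, 5 lay between 7.85 and 8.37, above every exercised heart, and sedentary replicate 3 at 7.52 lay inside the exercised range. The means were 7.60 ± 0.14 and 8.06 ± 0.33 (SD, n = 6 each), a difference of -0.47 (SE 0.14, adjusted p = 0.205), or 0.724-fold with a 95% interval of 0.585 to 0.895. Vegfc stood 451st of the 17098 probes by p. Within the low-background arrays the difference was -0.50, and within the high-background arrays, with 3 exercised hearts and 1 sedentary, it was -0.27. When arrays were scaled by their medians instead, the median over all tested probes was 0.26 in place of -0.03, and the Vegfc difference was -0.13, or -0.39 relative to that median.

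Lymphatic markers were followed beside Vegfc, since lymphatic vessels carry its receptor. Of the 6 genes listed, 5 were measured, 4 of them with a negative difference, 0 passing the test, and the median was -0.29. This median was -0.16 with background range as a block, and 0.06 under median scaling, against 0.26 over all probes. Their mean log2 intensity per array was 8.43 to 8.95 after running and 8.65 to 9.16 at rest. Flt4 itself was detected on at most 4 arrays by any of its 3 probes. The part of lymphatic markers in the Vegfc values was not tested.

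Pgf, placental growth factor, sat near the detection limit, being detected on 4 exercised and 5 sedentary arrays. It ran from 4.63 through 5.31 to 5.68 after running and from 5.05 through 5.62 to 5.70 at rest. The sedentary range lay almost wholly inside the exercised one, and the lowest heart was exercised replicate 2, on a high-background array. The difference was -0.21 (SE 0.19, adjusted p = 0.587).

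The angiopoietins, ligands of Tek, each had 1 tested probe. At Angpt1 the exercised values were 6.73 to 8.42 with a median of 7.30, and the sedentary values were 6.63 to 8.36 with a median of 7.08. The highest heart of each group, at 8.42 and 8.36, was replicate 2, and both of these were high-background arrays. The means of 7.37 ± 0.60 and 7.30 ± 0.63 (SD, n = 6 each) differed by 0.07 (SE 0.30, adjusted p = 0.924). High-background arrays exceeded the others by 1.01 (SE 0.22, adjusted p = 0.00226), the largest background difference among the members. With that range as a block the group difference was -0.27, and within the low-background and high-background arrays it was -0.15 and -0.57, so its sign depends on how the arrays are handled. Another 2 Angpt1 probes were detected on 0 arrays.

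Angpt2, the angiopoietin made by activated endothelial cells, had exercised values of 7.25 to 7.88 with a median of 7.67 and sedentary values of 7.20 to 8.21 with a median of 7.51. The sedentary range enclosed the exercised one, and its highest heart was sedentary replicate 3. The means of 7.63 ± 0.24 and 7.58 ± 0.34 (SD, n = 6 each) differed by 0.05 (SE 0.16, adjusted p = 0.882). A second Angpt2 probe was detected on 0 arrays.

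Apelin had a single probe on the array. Its values of 4.27 to 4.52 in exercised and 4.27 to 4.40 in sedentary hearts did not clear background on any of the 12 arrays, and the lowest detection p was 0.214. No fold is given for it. The ligand's own response to running was therefore not detectable with this probe, which is not the same as absence of the transcript.

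The apelin receptor was well detected, with a detection p under 0.01 on all 12 arrays. The exercised hearts ran from 7.10 through a median of 7.62 to 8.11 and the sedentary hearts from 8.12 through 8.40 to 8.60. All 6 exercised hearts lay below all 6 sedentary hearts, but at the boundary the gap was narrow, with exercised replicate 2 at 8.11 and sedentary replicate 2 at 8.12, both on high-background arrays. Separation of this kind in this direction was seen for 0.749% of all tested probes, and Aplnr was the only tested member with it. The means were 7.58 ± 0.34 and 8.37 ± 0.22 (SD, n = 6 each), a difference of -0.79 (SE 0.16, adjusted p = 0.0836) that missed the threshold. This is 0.577-fold, with a 95% interval of 0.459 to 0.727. By p, Aplnr stood 26th of the 17098 probes, and 16 probes passed.

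The Aplnr difference was negative under all 29 other settings tried, and its call turned on 3 of them. It was -0.84 (adjusted p = 0.0299) without sedentary replicate 2, -0.86 (adjusted p = 0.0489) within the 8 low-background arrays, and -0.90 (adjusted p = 0.0049) when arrays were weighted by their quality. Over all probes, 257, 11 and 579 passed in these settings, against 16 in the main fit. In the low-background arrays the 3 exercised hearts ran from 7.36 to 7.68 and the 5 sedentary hearts from 8.15 to 8.60, without overlap. In the high-background arrays, with 3 exercised hearts and 1 sedentary, the difference was -0.52 (SE 0.39), with a 95% interval of -1.43 to 0.38. With background range as a block it was -0.76 (adjusted p = 0.0621), and without the 3 exercised hearts richest in liver transcripts it was -0.74 (adjusted p = 0.334). Median scaling moved it by over 1.5 times to -0.46, or -0.72 relative to the median of all probes under that scaling. In the authors' deposited values the difference was -0.54 (adjusted p = 0.0862), on a scale whose transformation the labels leave unstated.

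**Figure D2:**
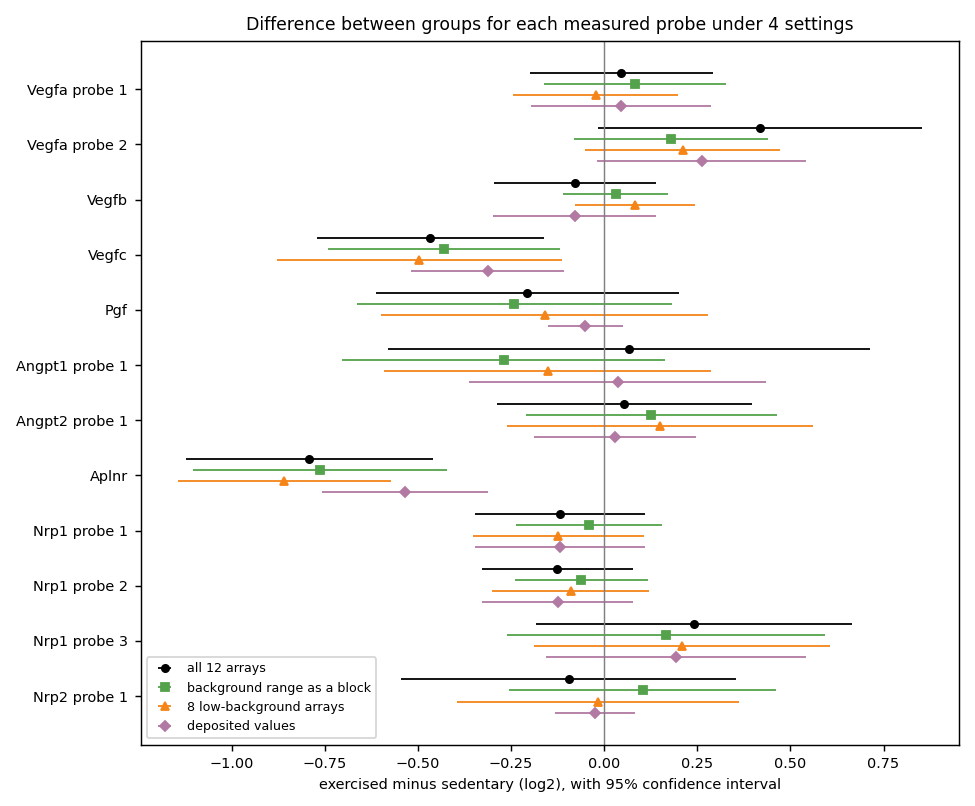
Exercised minus sedentary in log2 units with 95% confidence intervals for the 12 tested probes under 4 settings: all 12 arrays, background range as a block, the 8 low-background arrays and the deposited values. The Aplnr and Vegfc intervals lie below 0 under these 4, though not under median scaling or in the high-background arrays, which are not drawn, while the second Vegfa probe moves from 0.42 to 0.18 with background range as a block and Angpt1 changes sign from 0.07 to -0.27.

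Nrp1, the neuropilin that serves Vegfa on endothelial cells and class 3 semaphorins on nerve, was read by 3 tested probes. The first ran from 11.68 through 11.81 to 11.96 after running and from 11.58 through 11.92 to 12.24 at rest, and the second from 11.42 through 11.65 to 11.76 and from 11.54 through 11.78 to 11.94. At both probes sedentary replicates 4 and 6 were the highest hearts and the groups overlapped. The differences were -0.12 (SE 0.11, adjusted p = 0.574) and -0.13 (SE 0.10, adjusted p = 0.512), and the deviations of these probes from their group means correlated at 0.877 over the 12 arrays. The third probe is annotated to a cDNA clone record instead of a reference transcript, and it went another way. Its exercised values were 8.62 to 9.72 with a median of 8.73 and its sedentary values 8.29 to 9.22 with a median of 8.57, a difference of 0.24 (SE 0.20, adjusted p = 0.545) that was 0.078 without exercised replicate 2, its highest heart. Its deviations correlated with those of the other Nrp1 probes at -0.471 and -0.36, so it did not follow the same hearts as they did.

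Nrp2, the neuropilin found on veins and lymphatic vessels, had 6 probes, and 1 was tested. It was detected on 5 exercised and 4 sedentary arrays, and ran from 4.48 through 5.24 to 5.61 after running and from 4.53 through 5.39 to 5.59 at rest. The lowest hearts of both groups, exercised replicate 3 and sedentary replicate 2, were on high-background arrays. The difference was -0.10 (SE 0.21, adjusted p = 0.838), and high-background arrays were lower by 0.60 (SE 0.18, adjusted p = 0.0165) with the groups accounted for. A second Nrp2 probe was detected in sedentary replicates 4, 5 and 6, at 5.53, 5.42 and 5.52, and in 0 exercised hearts. With exercised values raised, where lower, to each array's lowest detected signal, its sedentary mean of 5.14 was 1.08-fold higher, with no test. The measured exercised mean was 4.73. The sedentary mean takes replicates 1, 2 and 3 as measured, where this probe was not detected, so 1.08-fold is not a strict lower bound. A further probe was detected on 2 arrays and 3 on none. Over all members, 4 of the 12 tested probes differed by background range at an adjusted p under 0.05, a share no larger than the 37.8% of all tested probes, with Vegfa's dimmer probe and Angpt1 being higher on high-background arrays and Vegfb and Nrp2 lower.

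The signalling receptors and partners of these ligands were read from a list of 19 genes, of which 12 were measured, each by its brightest probe. Of the 12, 10 had a negative difference, 0 passed the test, 5 were lower at an unadjusted p under 0.05, which 14.6% of all tested probes passed in either direction, and the median was -0.19 beside -0.03 for all tested probes. Tie1, the partner of Tek, differed by -0.41 (SE 0.13, adjusted p = 0.207), and the Vegfa, Vegfb and Pgf receptor Flt1 by -0.26 (SE 0.09, adjusted p = 0.231). Tek differed by -0.32 (SE 0.12, adjusted p = 0.267) and Svep1, a matrix protein that binds Tie1, by -0.34 (SE 0.14, adjusted p = 0.305). Kdr, the main signalling receptor of Vegfa, was detected on at most 2 arrays by either of its 2 probes and was not measured. Under median scaling the median of this list was 0.04, below that setting's median of 0.26 over all probes.

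Notch genes, which set the roles of tip and stalk cells in a sprout, were listed together with other genes of these cells, among them Cxcl12, Cxcr4, Robo4, Unc5b and Esm1, and 15 of the 17 were measured. Of these, 14 had a negative difference, 0 passed and the median was -0.19. Median scaling gave a list median of 0.14, against 0.26 over all probes. The chemokine Cxcl12 differed by -0.22 (SE 0.07, adjusted p = 0.221), with all exercised hearts below all sedentary hearts. It was the only 1 of the 15 with this separation, which 0.749% of all tested probes showed in this direction. Nrarp, a Notch target that restrains the pathway, differed by -0.39, and the ligands Dll1 and Jag1 by -0.30 and -0.38, with adjusted p of 0.254, 0.318 and 0.343. Under median scaling Cxcl12 was 0.09, Nrarp -0.05, Dll1 -0.09 and Jag1 -0.28. Dll4, the tip-cell ligand, was detected on at most 5 arrays by any probe and was not measured.

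Other growth factors and receptors of vessels gave 20 measured genes of 28, 17 with a negative difference, 0 passing and a median of -0.21. Pdgfb, which endothelial cells use to recruit pericytes, differed by -0.40 (SE 0.10, adjusted p = 0.142) and its receptor Pdgfrb by -0.37 (SE 0.11, adjusted p = 0.201). Ramp2, a partner protein of the adrenomedullin receptor, differed by -0.52 (SE 0.16, adjusted p = 0.199) and Thbs2, an inhibitor of angiogenesis, by -0.34 (SE 0.11, adjusted p = 0.207). The stimulating Pdgfb and the inhibiting Thbs2 thus had differences of the same sign. Median scaling gave -0.05 for Pdgfb and 0.01 for Thbs2, with a list median of 0.09 against 0.26 over all probes.

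Regulators and targets of the hypoxia response, which raises Vegfa in many tissues, were evenly divided: of 23 measured genes of 25, 11 had a negative and 12 a positive difference, 0 passed, and the median was 0.01. Ndrg1, a hypoxia target, differed by -0.51 (SE 0.16, adjusted p = 0.206). The glucose transporter Slc2a1 differed by 0.36 (SE 0.14, adjusted p = 0.271) and the kinase Pdk1 by 0.41 (SE 0.15, adjusted p = 0.277). Ppargc1a, a coactivator that induces Vegfa in skeletal muscle, differed by 0.52 (SE 0.21, adjusted p = 0.301). With background range as a block, Ndrg1 was -0.37, Slc2a1 0.42, Pdk1 0.26 and Ppargc1a 0.26. Median scaling gave a list median of 0.23, against 0.26 over all probes.

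**Figure D3:**
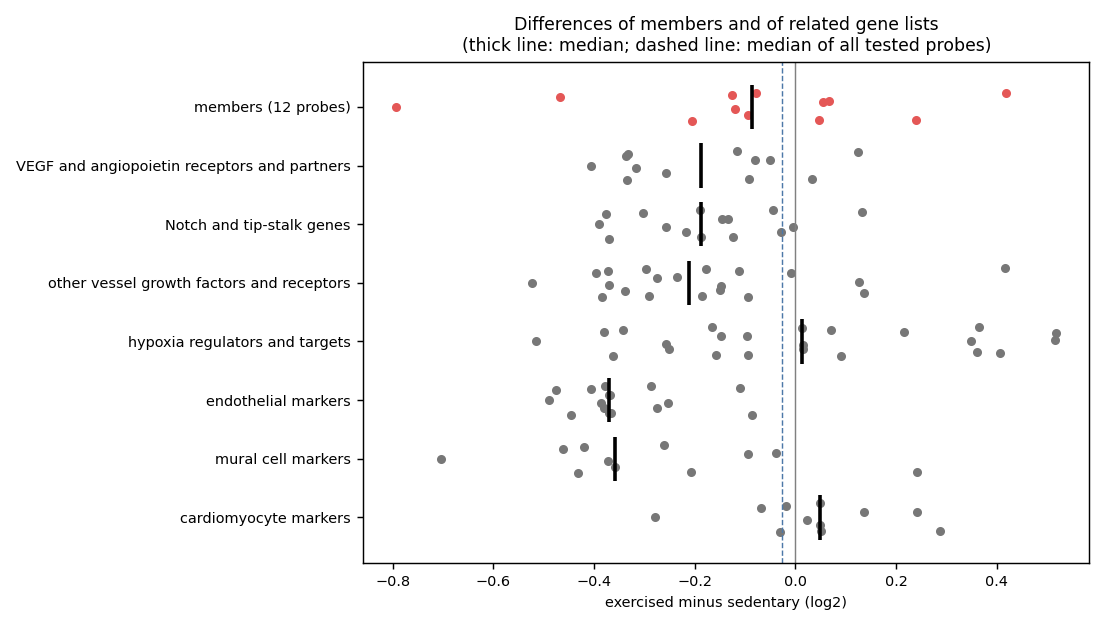
Exercised minus sedentary in log2 units for the 12 tested member probes, in red, and for the measured genes of 7 lists, in grey, with each list's median as a thick line and the median of all tested probes, -0.03, as a dashed line. Endothelial and mural cell markers have medians of -0.37 and -0.36, the members -0.09 and the cardiomyocyte markers 0.05.

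Markers of the cells that carry these receptors were read on the same arrays. All 16 measured endothelial markers of 18 had a negative difference, 1 fell (Ly6c1, by 0.45, SE 0.08, adjusted p = 0.0493) and the median was -0.37; Pecam1 and Cdh5, which define the cell type, differed by -0.09 and -0.28, and Erg and Kdr were not measured. Tie1 stands in this list and in that of the receptors. The mean of the 16 per array ran from 9.22 to 9.37 after running and from 9.42 to 9.91 at rest, without overlap. Of 11 measured mural cell markers, 10 were negative and Acta2 fell by 0.70 (SE 0.12, adjusted p = 0.0493). The mural mean per array did not overlap either, at 8.02 to 8.17 after running and 8.23 to 8.51 at rest. Ly6c1 and Acta2 passed only just, beside 0.0936% of all tested probes that passed in either direction. In the deposited values, and under cyclic loess scaling, only 1 probe of all passed. Under median scaling the endothelial and mural medians were -0.04 and -0.05, against 0.26 for all probes, and 0 probes passed the test. Fibroblast markers had a median of -0.19, and all 11 macrophage markers were negative with a median of -0.66. Blood cell markers, 5 measured and all negative, had a median of -0.53. Cardiomyocyte markers had a median of 0.05, with 4 negative and 7 positive. Median scaling gave medians of 0.11 (fibroblast), -0.31 (macrophage), -0.27 (blood cell) and 0.30 (cardiomyocyte), against 0.26 for all probes. With background range as a block they were -0.19, -0.46, -0.30 and 0.01. The part of these markers in the members' values was not tested.

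Set against the endothelial mean of the same array, Aplnr was -1.72 ± 0.37 after running and -1.27 ± 0.20 at rest (SD, n = 6 each), a difference of -0.45 in place of -0.79. On this scale 5 of 6 exercised hearts lay below every sedentary heart. Vegfc differed by -0.13 on the same scale. Of its exercised hearts, 0 lay below every sedentary heart, against 1 before the endothelial mean was subtracted. All remaining tested member probes had positive differences on this scale, from 0.13 at Pgf to 0.76 at Vegfa's dimmer probe. The subtracted mean was 9.30 after running and 9.64 at rest, so subtracting it raised every probe's difference by the same amount. The positive signs and the smaller Aplnr and Vegfc differences follow from that shift and are not results about the members. With the endothelial mean as a covariate, an alternative chosen after seeing the data, the Aplnr difference was -0.69 (adjusted p = 0.654), with an SE of 0.26 that was 1.67 times larger; the covariate's own values do not overlap between the groups.

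**Figure D4:**
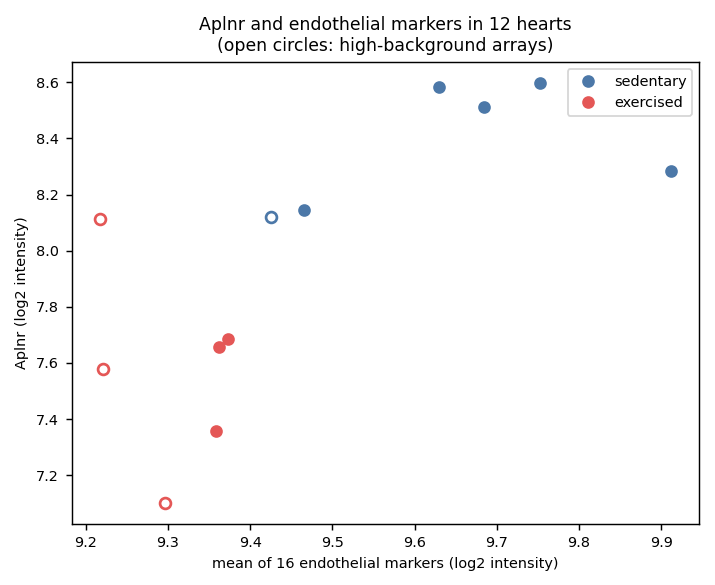
Aplnr log2 intensity against the mean log2 intensity of 16 endothelial markers in each of the 12 hearts, sedentary in blue, exercised in red, and high-background arrays as open circles. The groups do not overlap on either axis, with exercised hearts at 9.22 to 9.37 and sedentary hearts at 9.42 to 9.91 on the marker axis.

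Genes whose deviations from the group means ran most like those of each member over the 12 arrays were sought among 9842 other genes, as a description. Only the 2 highest r for each member are given. How high the best of so many unrelated genes would reach over 12 arrays was not tested, so a high r here does not show a link. Aplnr ran most like Mrps33 and Itga6, with Pearson r of 0.893 and 0.887, and Vegfc most like Pdzrn4 and Hadh, at 0.935 and 0.904. Vegfa's brighter probe ran like Dag1 and Tnpo3 (0.85 and 0.839), and Angpt2 like Cyp2s1 and Gli2 (0.957 and 0.91). Angpt1 ran with Hif1a and Srsf10 (0.97 and 0.969), and Vegfb with Tle5 and H2bc12 (0.975 and 0.969). These last 4 neighbours themselves differed by background range, Hif1a by 0.88 and Srsf10 by 0.82 upward, and Tle5 by -0.49 and H2bc12 by -0.65, as their members did. Pgf ran like Fbxo33 and Cdc23 (0.921 and 0.894), Nrp1 like Cdk2 and Dab2 (0.909 and 0.905) and Nrp2 like Ccs and Smagp (0.909 and 0.907). Of the 18 neighbours, 0 passed the test between groups and 6 differed by background range, as 37.8% of all tested probes did.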

How the data were processed

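The authors deposited bead intensity per probe and array, not normalised, per the file headers, with a detection p-value for each, per the file headers. They also deposited processed values close to a log2 scale, used as an alternative; the submitters' processing notes name lumi, with no version, and no source used here states the transformation. Intensities were corrected for background with limma 3.58.1 in R 4.3.3 (normexp using detection p-values, offset 16) and quantile normalised. The filter required a detection p below 0.01 on 6 or more of the 12 arrays and left 17098 of 45281 probes, and exercised minus sedentary was fitted to each with lmFit and eBayes with an intensity trend, Benjamini-Hochberg adjusted over all of them, at a threshold of 0.05. SE and intervals are limma's. Names came from the platform annotation: 34885 probes had 1 symbol, 18 several and 10378 none. For the lists and neighbouring genes, each of 9843 genes was read by its tested probe of highest mean.

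The members and the gene lists were chosen with earlier results of these data known. All 10 members are named, with, from each pathway list, the genes that passed or otherwise the 4 of smallest p, and the 2 nearest genes of each measured member. Marker genes and list medians are descriptions, with no test of the list. Replicate numbers appear in both groups, but the deviations of same-numbered arrays correlated between -0.317 and 0.612, above 0.1 in 3 of 6 pairs, so the samples were not paired. No 2 arrays held identical values. The alternatives were other background corrections and scalings, filters, weights, blocks, covariates and leaving out arrays. The number of arrays limits precision.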

Additional observations from a re-analysis of the deposited data

Results flagged for a closer look

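In 24 groups of 6 hearts, 1 for each tested member probe and group, the highest or lowest heart was compared with its nearest neighbour over the group's range. Chance alone would mark about 1 in 20 such groups, or 1.2 here, and 2 were marked. The dimmer Vegfa probe read 7.998 in sedentary replicate 2, far above the other sedentary hearts. The third Nrp1 probe read 9.72 in exercised replicate 2, far above the other exercised hearts. Both arrays are of high background. At the third Nrp1 probe, high-background arrays exceeded the others by 0.23 (SE 0.21, adjusted p = 0.424) with the groups accounted for. Its group difference with background range as a block was 0.16. Exercised replicates 3 and 6, also of high background, were its lowest exercised hearts, at 8.65 and 8.62. The part of the background was not tested beyond these values and those given for Vegfa.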

How the results depend on the processing

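The count of 0 member probes held in 26 of 29 alternatives. It was 1 (Aplnr) within the low-background arrays and with array weights. When arrays were left out in turn it was 0 to 1, being 1 without sedentary replicate 2. Calls over all probes ran from 0 to 579 (16 as reported, 257 without sedentary replicate 2, 0 under median scaling, 579 with array weights, 37 with background range as a block). Only 1 probe of all passed under cyclic loess scaling, in the deposited values, without the detection filter or without the intensity trend. The same count of 1 was reached when any of exercised replicates 2 to 6 or sedentary replicates 4 to 6 was left out. With the replicate block the count was 0 member probes and 3 of all, and Aplnr was -0.79 (adjusted p = 0.126). Aplnr, Vegfc, Pgf and the third Nrp1 probe kept their sign throughout. Of 343 alternatives for single probes, 28 turned the sign, none past the threshold, and the cause was not tested. Within the low-background arrays, Vegfa's brighter probe was -0.023, Vegfb 0.0835 and Angpt1 -0.15. Within the high-background arrays, Angpt1 was -0.57, the first Nrp1 probes 0.17 and 0.0089, and Nrp2 0.40. With background range as a block, Vegfb was 0.031, Angpt1 -0.27 and Nrp2 0.10. Median scaling gave Vegfb 0.20, the first Nrp1 probes 0.177 and 0.177, and Nrp2 0.059; array weights gave Vegfb 0.016. With the endothelial covariate, Vegfa's dimmer probe was -0.23, Vegfb 0.10, Angpt1 -1.07 (SE 0.35, adjusted p = 0.654), the first Nrp1 probes 0.10 and 0.092, and Nrp2 0.55. Angpt2 kept its sign with this covariate, at 0.66 (SE 0.18, adjusted p = 0.654). The covariate's values do not overlap between the groups, which limits these estimates. Leaving out arrays moved Vegfa's brighter probe from -0.025 to 0.093, Angpt1 from -0.14 to 0.28, Angpt2 from -0.022 to 0.18 and Nrp2 from -0.24 to 0.040. Aplnr ran from -0.90 to -0.70 (adjusted p 0.0299 to 0.248) and Vegfc from -0.58 to -0.41. Signal near background limits Pgf and Nrp2.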
